A study of Mus musculus with 8 samples.

Results

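YAP and TAZ are transcriptional coactivators at the end of the Hippo pathway. When the Hippo kinases phosphorylate them they are held in the cytoplasm or degraded, and when they are not phosphorylated they enter the nucleus, bind TEAD factors and drive a set of target genes that serve as a readout of their activity. Excess YAP activity in the liver is known for enlarging the organ and for changing the identity of hepatocytes. The RNA of 10 such targets was examined here in livers of mice with a hepatocyte deletion of the ubiquitin ligase gene Brap and in control livers: Ccn1, Ccn2, Ankrd1, Ajuba, Axl, Crim1, Nuak2, Dock5, Fjx1 and Gadd45b. They were chosen by gene symbol among the 24451 genes of the deposited table, and all 10 were found there.

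Livers labelled Brap LKO came from 4 mice that were Brap fl/fl and Alb Cre+, in which the albumin promoter drives Cre in hepatocytes. Livers labelled wild type came from 4 mice that were Brap fl/fl and Alb Cre-, and are called Brap F/F. All mice were male, are labelled C57BL/6 (the floxed line was made on C57BL/6J), were killed at 18 wk of age after a 6 h fast, and the left lobe was taken. Each library carries an animal number of its own, so the spread is that between mice. Cre was not driven in stellate cells, endothelium or macrophages, whose RNA is part of each sample. Sequencing gave from 26280884 to 33313914 reads on genes in each liver. The counts of Brap were 3988 ± 242 (SD, n = 4) normalized counts in Brap LKO and 4186 ± 179 (SD, n = 4) in Brap F/F, and since Cre removes only exons 2 and 3, a count over the whole gene does not check the labels. The values below are normalized counts, that is, reads on a gene divided by a size factor for each liver. Groups were compared on log2(normalized count + 1) with limma across the 15352 genes with a mean of at least 5, where fold changes of sparse genes are understated.

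TEAD factors recognise the letters GGAATG, and RefSeq promoter windows (GRCm38.p6), which run from 250 bases before to 50 bases after a start site, were found for 6 of the 10 targets. The motif was present on either strand in 5 of these 6 windows, with 7 matches in all, and in 14.7% of the 32851 windows of all genes. The targets had been listed because they are known to answer YAP, so this is a description of the list. In the Ccn1 window the match lay on the strand opposite to the gene, 103 to 98 bases before the start. Ankrd1 held a pair of matches on its own strand, 210 to 205 and 123 to 118 bases upstream. Ajuba held a pair on the opposite strand, 186 to 181 and 164 to 159 bases upstream. The match of Axl lay 233 to 228 bases upstream, and that of Crim1 79 to 74 bases upstream. The window of Gadd45b did not hold these letters. None (0) of the 6 windows held the AP-1 motif TGANTCA, which 7.81% of all windows hold, or the CArG box of the serum response factor, which 1.63% hold. Windows were not found for Ccn2, Nuak2, Dock5 and Fjx1. The 4 sequences that follow belong to the targets whose Brap LKO livers all lay above all Brap F/F livers. They are written 5′ to 3′ along the gene, and the capitals mark GGAATG or its complement CATTCC.
Ccn1, chr3:145649936-145650235, reverse strand: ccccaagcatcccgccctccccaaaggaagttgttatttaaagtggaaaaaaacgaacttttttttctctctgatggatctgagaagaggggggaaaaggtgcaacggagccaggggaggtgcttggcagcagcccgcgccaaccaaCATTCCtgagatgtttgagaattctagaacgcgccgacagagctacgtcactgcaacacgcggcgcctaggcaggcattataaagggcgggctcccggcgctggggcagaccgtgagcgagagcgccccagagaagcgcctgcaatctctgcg
Ankrd1, chr19:36119795-36120094, reverse strand: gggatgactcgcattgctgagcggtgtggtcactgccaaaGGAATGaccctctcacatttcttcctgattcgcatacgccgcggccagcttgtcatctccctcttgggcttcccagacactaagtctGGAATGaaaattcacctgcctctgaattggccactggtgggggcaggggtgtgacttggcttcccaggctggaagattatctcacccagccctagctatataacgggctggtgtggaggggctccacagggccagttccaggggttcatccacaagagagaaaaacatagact
Axl, chr7:25788684-25788983, reverse strand: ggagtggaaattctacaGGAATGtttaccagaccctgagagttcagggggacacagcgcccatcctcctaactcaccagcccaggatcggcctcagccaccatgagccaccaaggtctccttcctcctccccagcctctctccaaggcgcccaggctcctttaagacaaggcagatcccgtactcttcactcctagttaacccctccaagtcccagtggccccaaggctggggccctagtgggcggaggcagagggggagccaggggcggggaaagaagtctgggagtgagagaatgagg
Crim1, chr17:78199998-78200297, forward strand: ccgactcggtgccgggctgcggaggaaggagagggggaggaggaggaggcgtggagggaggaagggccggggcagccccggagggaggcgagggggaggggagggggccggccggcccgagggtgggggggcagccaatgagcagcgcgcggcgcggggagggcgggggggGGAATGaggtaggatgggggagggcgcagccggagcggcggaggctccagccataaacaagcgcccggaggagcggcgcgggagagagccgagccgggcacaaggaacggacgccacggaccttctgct

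**Figure D1:**
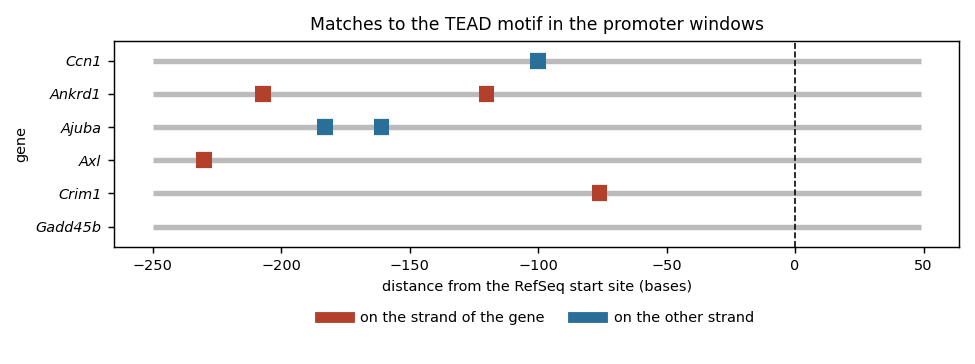
Matches to the TEAD motif in the RefSeq promoter windows of 6 targets, with the distance from the start site in bases on the x axis and 1 line per gene. Red blocks lie on the strand of the gene and blue blocks on the other strand, and 5 of the 6 windows hold at least 1 match, all of them upstream of the start.

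Ccn1 was the only target that passed an adjusted p-value of 0.05 as higher by limma, and this call held in 8 of 19 other settings. DESeq2 called Axl and Crim1 besides Ccn1, and whether Ccn1 changed more than the other targets was not tested. Expression of Ccn1 was 1.80-fold higher in Brap LKO livers (95% confidence interval 1.42 to 2.29). By limma, the 8 other tested targets did not pass the threshold of an adjusted p-value of 0.05. In whole liver RNA, a change in the number of cells of a type and a change in RNA per cell cannot be told apart. No target was lower at that threshold (0 of 9 tested by limma and edgeR, and 0 at an unadjusted p-value of 0.05 by limma). DESeq2, which gave no adjusted p-value to Ankrd1, also called 0 as lower. At the same threshold 0.664% of all tested genes were higher and 0.104% lower, and the targets' count of 1 in 9 rests on a single gene. At an unadjusted p-value of 0.05, 5 of the 9 targets were higher (Ccn1, Ankrd1, Ajuba, Axl and Crim1), where 9.23% of all tested genes were higher and 6.59% lower. The Brap LKO livers lay wholly above the Brap F/F livers in 4 targets (Ccn1, Ankrd1, Axl and Crim1) and wholly below them in 0, against 5.48% and 4.39% of all tested genes. The median log2 fold change of the 9 targets was 0.28, and that of all tested genes was -0.01. The fitted log2 fold change was above 0 in all 9, against 48.0% of all tested genes. For Ccn2, Dock5 and Gadd45b, however, the sign of the fold change depended on the processing.

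**Figure D2:**
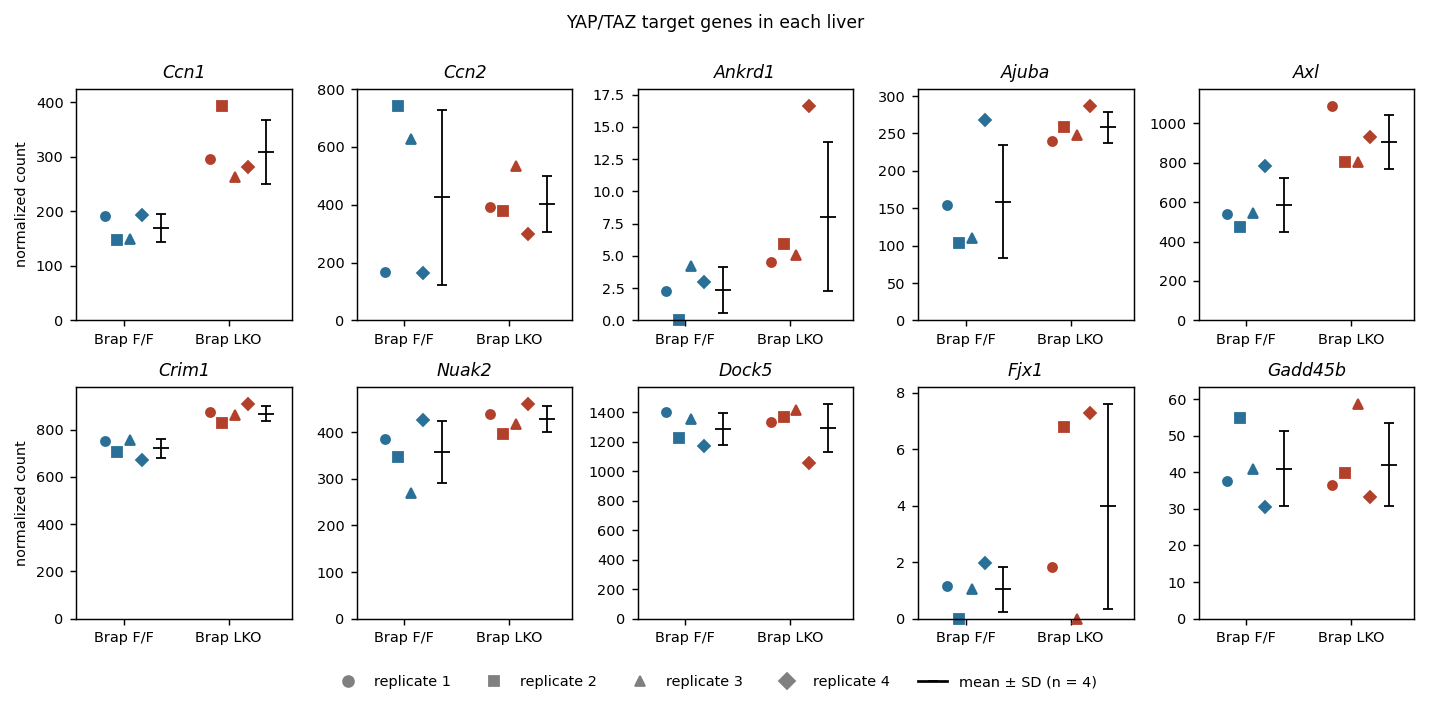
Normalized counts of the 10 targets in each liver, on linear axes that start at 0. Each symbol is a replicate, and the black bars give the mean ± SD of 4 livers. In Ccn1, Ankrd1, Axl and Crim1 the groups are apart, in Ccn2 the Brap F/F livers range from 163 to 742, and Dock5 and Gadd45b overlap widely.

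Levels were compared between genes per kilobase of exon (GENCODE M21, mm10). By the mean of the 8 livers, the order was Axl (148 normalized counts per kilobase), Ccn2 (144), Crim1 (133), Ccn1 (118), Dock5 (106), Nuak2 (100.3), Ajuba (57.2), Gadd45b (26.1), Ankrd1 (1.80) and Fjx1 (0.800). The ranges over the 8 livers of neighbours in this order overlapped, except those of Gadd45b (19.1 to 36.9) and Ankrd1 (0 to 5.77). Ankrd1 and Fjx1 rested on 16 and 8 reads or fewer per liver, and Fjx1, with a mean under the filter, was not tested.

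Among the secreted targets, Ccn1 encodes a matricellular protein that binds integrins. It lies on chromosome 3 (145646976 to 145649981, reverse strand). Its normalized counts were 296, 393, 262 and 282 in Brap LKO replicates 1 to 4, compared with 190, 146, 149 and 193 in Brap F/F replicates 1 to 4. The lowest Brap LKO liver lay well above the highest Brap F/F liver. On the log2 scale the difference was 0.85 with a standard error of 0.154 (limma, adjusted p = 0.0469, exact permutation test p = 0.0286, the smallest that 4 livers against 4 allow). The adjusted p-value lay just under the threshold, and it stayed under it in 8 of 19 other settings. Of the 8 fits that left out 1 liver, only that without Brap F/F replicate 4 kept the call (adjusted p = 0.0402), and the others gave up to 0.150 (without Brap LKO replicate 1). The fold change itself was similar throughout, with a log2 value from 0.73 to 1.01.

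Ccn2, the gene of connective tissue growth factor, is a close relative of Ccn1 and a standard YAP target in liver. It lies on chromosome 10 (24595442 to 24598683, forward strand). Counts were 393, 379, 533 and 300 in Brap LKO replicates 1 to 4, and 168, 742, 628 and 163 in Brap F/F replicates 1 to 4. The control livers fell on both sides of the knockout livers, with replicates 2 and 3 above every Brap LKO liver and replicates 1 and 4 below every one. The mean was 401 ± 97.1 (SD, n = 4) against 425 ± 304 (SD, n = 4), so that the ratio of the means was 0.944 while the log2 fold change was 0.22 (95% confidence interval -0.89 to 1.34, limma, adjusted p = 0.849). Neither a rise of the size seen for Ccn1 nor a fall could be told from no change in Ccn2. Without Brap F/F replicate 2 the log2 fold change was 0.60, and without replicate 4 it was -0.12. Of the exon bases of Ccn2, 23.2% are shared with Gm15270 on the opposite strand, and whether the counting used strand is not given in the sources used here. Gm15270 held at most 16.3 normalized counts in any liver. How reads in the shared bases were treated is not known, so this low count does not show whether the Ccn2 count was affected.

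The spread of Ccn2 among the controls was shared by many genes. After each gene was centred on its group means, 144 other tested genes had a Pearson correlation above 0.95 with Ccn2 over the 8 livers, a description that rests mainly on Brap F/F replicates 2 and 3. Among the most alike were Slc25a51 (0.997), Setd3 (0.997), Flt1 (0.993) and Degs1 (0.989). Slc25a51, which encodes the mitochondrial NAD carrier, was at 7696 and 6739 in Brap F/F replicates 2 and 3, at 3417 and 3146 in replicates 1 and 4, and between 3169 and 4341 in Brap LKO. For Ccn1, 1 tested gene passed the same correlation. This was Dnajc22 (0.963), which encodes a J-domain protein, and Gm2602, Maea, 4933434E20Rik and Polr3k followed with correlations from 0.930 to 0.945. Among the Brap LKO livers, all 5 were highest in replicate 2, as Ccn1 was (Gm2602 at 37.4 there and 15.2 to 17.3 in the others). How far the correlations rest on that liver was not tested. None of these 5 genes passed the threshold between the groups (the lowest adjusted p-value from limma was 0.575).

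**Figure D3:**
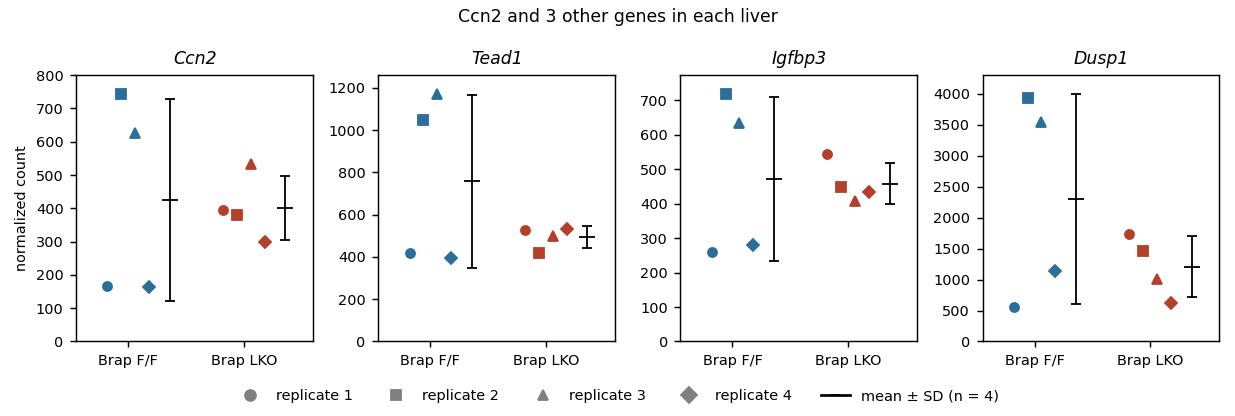
Normalized counts of Ccn2, of the TEAD factor gene Tead1, of Igfbp3 and of the phosphatase gene Dusp1 in each liver, on linear axes from 0, with the mean ± SD of 4 livers. In each panel Brap F/F replicates 2 and 3 lie above every Brap LKO liver, and they are far from Brap F/F replicates 1 and 4.

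Fjx1, the mammalian relative of the fly Golgi kinase four-jointed, lies on chromosome 2 (102449366 to 102452499). It had 2, 8, 0 and 7 reads in Brap LKO replicates 1 to 4 and 1, 0, 1 and 2 in the controls. Only Brap LKO replicates 2 and 4 had more than 2 reads. The ratio of the summed reads, 17 against 4 and corrected for size factors, was 3.85, with an exact interval of 1.26 to 15.7 that covers counting error alone. Between mice, the groups could not be told apart on log2(normalized count + 1) (exact permutation test, p = 0.286).

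Of the targets at the cell surface, Axl encodes a receptor tyrosine kinase that binds Gas6. It lies on chromosome 7 (25757273 to 25788705, reverse strand). Brap LKO replicates 1 to 4 had 1088, 801, 801 and 930 normalized counts, and Brap F/F replicates 1 to 4 had 539, 474, 546 and 781. The groups did not overlap, but Brap F/F replicate 4, at 781, came close to the lowest Brap LKO livers, at 801. The fitted ratio of Brap LKO to Brap F/F was 1.56 (log2 fold change 0.64 with a standard error of 0.160, limma, adjusted p = 0.104), and the exact permutation test gave the smallest possible p (0.0286). Without Brap F/F replicate 4 the adjusted p-value was 0.0249.

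Crim1, a transmembrane protein with cysteine-rich repeats that binds bone morphogenetic proteins, is encoded on chromosome 17 (78200248 to 78376592, forward strand). The 4 Brap LKO livers had 874, 829, 862 and 909 normalized counts, and the 4 Brap F/F livers had 750, 707, 755 and 672. Relative to its level it had the smallest spread of the 10 targets within each group, and the groups did not overlap. The difference was small at 1.20-fold (95% confidence interval 1.09 to 1.34, log2 fold change 0.27, limma, adjusted p = 0.104, exact permutation test p = 0.0286). Exons of Crim1 share 2.05% of their bases with Fez2 on the opposite strand. Fez2 had from 845 to 1041 normalized counts over the livers. How reads in the shared bases were treated is not known, so whether the Crim1 count was affected is not known either.

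Among the intracellular targets, Ajuba encodes a LIM-domain adaptor that can restrain the LATS kinases, and lies on chromosome 14 (54567472 to 54577558). Its counts were 240, 259, 248 and 287 in Brap LKO, in the order of the replicates, and 154, 104, 110 and 268 in the controls. In Brap F/F replicates 1 to 3 it lay far below every Brap LKO liver, whereas replicate 4 lay among them. The difference was 0.80 on the log2 scale, with a standard error of 0.265 (limma, adjusted p = 0.202, exact permutation test p = 0.114). It was 1.09 without Brap F/F replicate 4 (adjusted p = 0.0185), and no other setting put Ajuba past the threshold.

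Ankrd1, an ankyrin-repeat protein best known from stressed heart muscle, is encoded on chromosome 19 (36111961 to 36120099). It had 5, 7, 5 and 16 reads in Brap LKO replicates 1 to 4 and 2, 0, 4 and 3 in Brap F/F replicates 1 to 4. Every Brap LKO liver had more than every control, by 1 read at the closest. The log2 fold change of 1.48 had a wide interval (0.15 to 2.82, limma, adjusted p = 0.277, exact permutation test p = 0.0286). The summed reads, 33 against 9, gave a ratio of 3.32 after correction for size factors, with an exact interval from 1.56 to 7.90 for counting error.

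Nuak2 (chromosome 1, 132316126 to 132333488) encodes a kinase of the AMPK family that acts on actomyosin. Normalized counts of 440, 397, 417 and 461 stood in the Brap LKO livers beside 387, 348, 269 and 427 in the controls. Only Brap F/F replicate 4 lay within the range of the knockouts. The log2 fold change was 0.28 (95% confidence interval -0.03 to 0.58, limma, adjusted p = 0.356).

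Dock5 (chromosome 14, 67752135 to 67933442) encodes an activator of the GTPase Rac and had the highest count of the 10. It ranged from 1055 to 1418 in Brap LKO and from 1170 to 1401 in Brap F/F. The log2 fold change was 0.00082 (95% confidence interval -0.24 to 0.24, limma, adjusted p = 0.997), an interval that excludes a change of the size measured for Ccn1. Gadd45b (chromosome 10, 80930073 to 80932204), a stress-inducible regulator of growth arrest, ranged from 33.3 to 58.7 and from 30.4 to 54.9 in Brap LKO and Brap F/F. The fitted difference was 0.03 on the log2 scale (95% confidence interval -0.50 to 0.57, limma, adjusted p = 0.955).

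Seen by liver rather than by gene, the mean deviation of the 9 tested targets from their own 8-liver means lay between 0.20 and 0.30 on the log2 scale in the Brap LKO livers and between -0.37 and -0.16 in the controls. Brap LKO replicate 3 was above the 8-liver mean in all 9 targets, and Brap F/F replicate 1 in 1. Brap LKO replicate 4 was above it in 6 targets, the fewest of its group, although its mean deviation was the highest of the 8 livers. Ankrd1, which weighs as much as any other target in these means, had 16 reads in that liver and 5 to 7 in the other Brap LKO livers. It had 0 reads in Brap F/F replicate 2, the liver with the lowest mean deviation (-0.37). Both extremes thus lean on a gene with few reads.

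With DESeq2 on the reads recovered from the table, Ccn1, Axl and Crim1 passed the threshold as higher (adjusted p = 0.000141, 0.0169 and 0.0206), against 3.02% of the genes to which it gave an adjusted p-value. The same 3 targets passed with limma when every liver was scaled to the same total, against 2.99% of all genes. That scaling moved the median of all genes to 0.15 on the log2 scale, about as far as it moved Crim1 (from 0.27 to 0.43). Without Brap F/F replicate 4, Ccn1, Axl and Ajuba passed, against 1.16% of all genes. In these 3 settings as in the others, no target passed as lower.

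**Figure D4:**
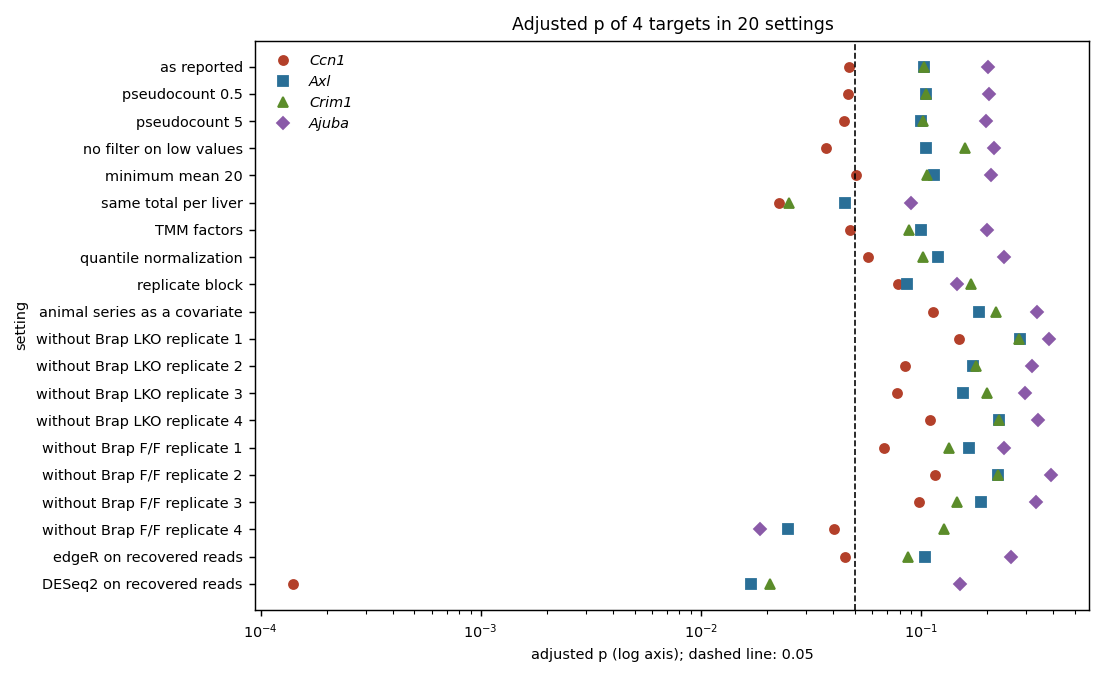
Adjusted p-values of Ccn1, Axl, Crim1 and Ajuba (log axis), 1 setting per line, with the threshold of 0.05 dashed. The line labelled as reported is the limma fit of this report, and 19 other settings follow. Ccn1 lies just left of the line as reported at 0.0469 and crosses to the right of it in 11 of the 19 other settings, and the other 3 genes lie to its left only in 1 to 3 settings each.

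All targets but Ajuba belong to a widely used pan-cancer YAP/TAZ signature. Of its 13 other genes, 12 were tested, and Foxf2 was not analysed here. Myof and Tgfb2 rose, 0 fell, and 10 did not pass the threshold, at which 0.664% of all tested genes were higher. At an unadjusted p-value of 0.05 (limma), 5 of the 12 were higher and 0 lower, where 9.23% of all tested genes were higher. The fitted log2 fold change was above 0 in 11 of the 12, against 48.0% of all tested genes. The median log2 fold change of the 12 was 0.29, close to that of the 9 targets. Myof, which encodes the membrane repair protein myoferlin, was at 212, 138, 177 and 231 normalized counts in Brap LKO and at 98.1, 69.2, 73.6 and 88.3 in Brap F/F (log2 fold change 1.18 with a standard error of 0.185, limma, adjusted p = 0.0298). Tgfb2, which encodes a ligand of the TGF-beta family, stood at 34.6, 26.3, 28.3 and 41.6 against 10.3, 4.07, 7.36 and 12.8 (log2 fold change 1.88 with a standard error of 0.331, limma, adjusted p = 0.0435). Neither gene showed an overlap of the groups, nor did Ccdc80, which encodes a matrix-associated protein, at 360 ± 71.4 against 213 ± 24.4 (SD, n = 4) normalized counts (log2 fold change 0.74, limma, adjusted p = 0.0606). DESeq2 called Ccdc80 besides Myof and Tgfb2. Of the 8 fits that each left out a liver, Myof kept the call in 3 (those lacking Brap LKO replicate 2, or replicate 1 or 4 of the controls, adjusted p up to 0.117 in the rest), and Tgfb2 in that without Brap F/F replicate 4 (up to 0.150). Amotl2 and Lats2, which encode regulators that restrain YAP, had log2 fold changes of -0.24 (95% confidence interval -0.48 to 0.01) and 0.10 (-0.16 to 0.37). The signature gene Igfbp3 followed the pattern of Ccn2, at 717 and 635 in Brap F/F replicates 2 and 3, at 259 and 279 in replicates 1 and 4, and from 409 to 543 in Brap LKO.

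**Figure D5:**
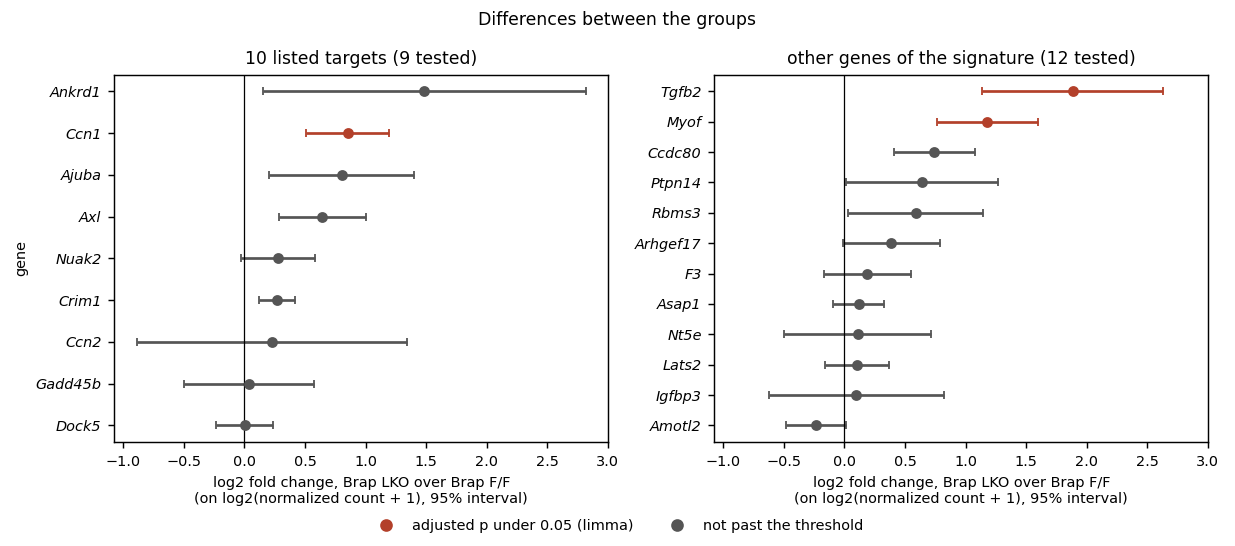
Log2 fold changes of Brap LKO over Brap F/F with 95% confidence intervals from limma, for the 9 tested targets on the left and 12 other genes of the signature on the right. Red marks an adjusted p-value under 0.05, reached by Ccn1, Tgfb2 and Myof, and the widest interval among the targets is that of Ankrd1 (0.15 to 2.82).

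Of 10 further reported YAP targets, 9 were tested, and Sox4, a transcription factor gene, rose (148 ± 52.6 against 51.6 ± 10.5 normalized counts, SD, n = 4, log2 fold change 1.46, limma, adjusted p = 0.0349), while 8 did not pass. At an unadjusted p-value of 0.05 (limma), 5 of the 9 were higher and 0 lower, where 9.23% of all tested genes were higher. The median log2 fold change of the 9 was 0.71, and edgeR and DESeq2 called only Sox4. Leaving out 1 liver at a time, the call of Sox4 held only without Brap F/F replicate 4 (adjusted p up to 0.119). Notch2, Jag1 and Ihh form a list of 5 qPCR readouts with Ccn1 and Ccn2. Of these, 1 (Ccn1) passed here as higher and 0 as lower, at a p-value adjusted over 15352 genes. At an unadjusted p-value of 0.05 (limma), 2 of the 5 were higher (Ccn1 and Notch2) and 0 lower, where 9.23% of all tested genes were higher. The fitted log2 fold change was above 0 in all 5, though for Ccn2 its sign depended on the processing. By qPCR, an assay other than sequencing, the study reported these YAP targets as increased in Brap LKO livers. Notch2, a receptor gene, and Jag1, a ligand gene of the same pathway, had log2 fold changes of 0.18 and 0.055 (limma, adjusted p = 0.298 and 0.870). Ihh, a hedgehog ligand gene, had 0.79 (limma, adjusted p = 0.513), with 103 normalized counts in Brap F/F replicate 4 and 33.1 or fewer in the other controls.

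The genes of the coactivators and their partners did not pass the threshold (0 of 8 by limma or edgeR, 1 higher and 0 lower at an unadjusted p-value of 0.05). At that unadjusted level, 9.23% of all tested genes were higher (limma). The exception at the unadjusted level was Vgll3, which encodes a TEAD-binding cofactor, at 20.2 ± 8.37 against 6.27 ± 2.84 (SD, n = 4) normalized counts (log2 fold change 1.53, limma, adjusted p = 0.0986), and DESeq2 called it as higher. Tead1 split the controls as Ccn2 did, with 1046 and 1169 normalized counts in Brap F/F replicates 2 and 3 against 417 and 396 in replicates 1 and 4, and from 419 to 531 in Brap LKO.

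Some markers of cells other than hepatocytes moved with the groups. Over all tested genes, limma called 0.664% higher at the threshold and 9.23% higher at an unadjusted p-value of 0.05. In 5.48% the Brap LKO livers lay wholly above the Brap F/F livers. DESeq2 called 3.02% as higher. Of 6 markers of recruited macrophages, 3 rose (Gpnmb, Itgax and Cx3cr1), 0 fell, and the summed level ranged from 528 to 918 in Brap LKO and from 286 to 496 in Brap F/F. At an unadjusted p-value of 0.05, 5 of the 6 were higher, edgeR called the same 3, and DESeq2 called Ccr2 as well. Of 12 stellate cell and fibroblast markers, Pdgfrb rose and 11 did not pass, with summed levels of 10830 to 15875 and 7896 to 14297. Of these 12, 6 were higher and 0 lower at an unadjusted p-value of 0.05, with a median log2 fold change of 0.44. The edgeR test called Lum besides Pdgfrb, and DESeq2 called Lum, Col1a1, Col1a2 and Col3a1 besides it, all as higher. Of 8 cholangiocyte markers, Cftr rose, 7 did not pass, and the sums were 1411 to 3145 and 739 to 1553. Most of these sums was Spp1, at 969 to 2254 and 500.4 to 1125, and both Spp1 and Sox9 also stand in the list of further YAP targets. At an unadjusted p-value of 0.05, 6 of the 8 were higher and 0 lower, the groups did not overlap in 4, and the median log2 fold change was 0.95. DESeq2 called Tspan8 and Epcam besides Cftr, and edgeR only Cftr. Of 5 mesothelial markers, Wt1 rose by limma, edgeR and DESeq2, with sums from 59.5 to 202 and from 41.0 to 151, and no other passed, also at an unadjusted p-value of 0.05. When each liver was left out in turn, Gpnmb, Itgax and Pdgfrb kept their calls only without Brap F/F replicate 4 (adjusted p up to 0.165 in the other fits), Cftr in 3 of 8 fits, Wt1 in 4 and Cx3cr1 in 5. The part of these cells in the values of Ccn1, Axl, Myof or Tgfb2 was not tested. None of the 9 endothelial markers, 8 Kupffer cell and macrophage markers, 8 hepatocyte markers and 5 red blood cell markers passed the threshold (0 by limma, edgeR and DESeq2, with 1 Kupffer cell and macrophage marker at an unadjusted p-value of 0.05). Their sums overlapped between the groups, at 8919 to 12518 and 7576 to 11424 for endothelium, 5391 to 9999 and 5807 to 7953 for Kupffer cells and macrophages, 2436655 to 3117086 and 2886799 to 4014841 for hepatocytes, and 3788 to 4325 and 4197 to 4655 for red blood cells. The hepatocyte markers, led by Alb, were by far the highest of all, as the tissue label says, and no listed marker was at 0 in every liver. Cftr was at 0 in Brap F/F replicate 1.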

How the data were processed

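Liver RNA of 8 mice was sequenced by the authors as single-end reads of 50 bases. According to the paper's methods and the submitters' processing notes, reads were checked with FastQC and aligned to mm10 with STAR 2.6.0c. How reads were assigned to genes, with which annotation and whether by strand, is not given in the sources used here. The deposited values are a signal: reads on each gene after the authors scaled every liver with DESeq2 size factors. Divided by the smallest value above 0 of their liver, 100% of values were whole within 0.01 reads, and these reads were recovered. A second deposited table holds the authors' own DESeq2 comparison (mean, fold change, p-value) and was not used. All 8 columns of livers were mapped, and 0 were left aside. Between 26280884 and 33313914 reads per liver set the precision, and counting intervals (95%, exact) cover counting error only.

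Groups were compared with limma 3.58.1 (R 4.3.3), with moderated variances that follow the mean, on log2(normalized count + 1). Genes needed a mean of at least 5, with Benjamini-Hochberg adjustment over the 15352 genes tested, a threshold of 0.05 and no covariates. The study's DESeq2 needs counts, so DESeq2 1.42.0 and the quasi-likelihood test of edgeR 4.0.16 were run on the recovered reads as alternatives. Other settings were pseudocounts of 0.5 and 5, a minimum mean of 20 or none, the same total per liver, TMM factors, quantile normalization, the replicate number as a block, a lower or higher series of animal numbers as a covariate, and each liver left out in turn. Single targets were compared by two-sided exact permutation tests over 70 arrangements. The limma and edgeR steps were first tested on simulated data. The targets and all gene lists were chosen with earlier results of these data known. Named genes are all 10 targets, up to 6 per further list with the smallest p or the highest level, and for Ccn1 and Ccn2 the 5 genes with the highest group-centred Pearson correlation, of which 1 is not reported here. Gm15270, Fez2, Slc25a51's values, Jag1, Ihh and the genes given for their spread between livers (Igfbp3, Tead1, Dusp1) or as feedback genes or relatives were singled out after their values were seen. Positions, exon lengths and overlaps came from GENCODE M21 (24430 of the table's genes were found in it), and promoter windows from RefSeq (GRCm38.p6). Python 3.11.15 was used with pandas 2.3.3 and matplotlib 3.10.9.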

Additional observations from a re-analysis of the deposited data

Results flagged for a closer look

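Each group of 4 livers was examined for a liver whose gap to its nearest neighbour took up most of the range of the group (Dixon's ratio above its 95% critical value), for the targets and the listed pathway genes. Of 128 groups, 6 had such a liver, where chance gives about 6.4. Ankrd1 stood at 16.6 normalized counts in Brap LKO replicate 4 and at most at 5.95 in the other Brap LKO livers. Rbms3 stood at 168 in Brap F/F replicate 3, and the next control at 88.5. Vgll3 was also highest in Brap F/F replicate 3, at 10.5 against at most 5.09. In Brap LKO replicate 4, Gas6 was at 1993 against at most 1240, and Notch2 was at 2051 against at least 2219. Areg was at 1.02 in Brap F/F replicate 2, which is 1 read, and at 0 in the other controls. The values for Ankrd1, Gas6 and Notch2 all come from Brap LKO replicate 4, and no cause was tested.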

How the results depend on the processing

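In this section, as reported stands for the limma fit of this report, not for the study's own DESeq2 calls. Of the results on the 10 targets, the number that passed as lower was 0 in all 19 other settings. The number that passed as higher, 1 as reported (Ccn1), was 0 with a minimum mean of 20, with quantile normalization, with the replicate block and with the animal series as a covariate, and 3 with the same total per liver and with DESeq2. Without 1 liver it ranged from 0 to 3. The number of signature genes past the threshold, 2 as reported, was 1 with a minimum mean of 20, with quantile normalization and with the animal series, 3 with the same total per liver and with DESeq2, and ranged from 0 to 2 without 1 liver. The median log2 fold change of the targets, 0.28 as reported, was 0.46 with no filter on low values (which adds Fjx1), 0.44 with the same total per liver and 0.43 with the animal series, and ranged from 0.27 to 0.55 without 1 liver. Over all genes, 102 were higher and 16 lower by the limma fit of this report. The number of higher genes was 459 with the same total per liver, 62 with quantile normalization and 455 with DESeq2, and that of lower genes was 9 with a minimum mean of 20 and 170 with DESeq2. Without 1 liver they ranged from 11 (without Brap LKO replicate 1) to 178 (without Brap F/F replicate 4) and from 4 (without Brap F/F replicate 2) to 54 (without Brap F/F replicate 4). The log2 fold change of Ccn2 turned to -0.070 with edgeR and -0.082 with DESeq2, that of Dock5 to -0.14 with the animal series, and that of Gadd45b to -0.16 with quantile normalization and -0.034 with the animal series. Without 1 liver these ranged from -0.12 to 0.60 for Ccn2, from -0.046 to 0.10 for Dock5 and from -0.13 to 0.18 for Gadd45b. The cause of these moves was not tested, and Ccn1, Ankrd1, Ajuba, Axl, Crim1 and Nuak2 stayed above 0 in all settings in which they were fitted.

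Same-numbered livers of the 2 groups share only a number. The correlations of their deviations from the group means were -0.13, 0.0034, 0.20 and 0.29 for replicates 1 to 4. With the replicate block, 80 genes were higher and 15 lower, and Ccn1 had an adjusted p-value of 0.0785 (limma). Brap LKO replicate 1 did not correlate best with its own number. Replicates 2, 3 and 4 did, replicate 3 by a small margin (0.196, against 0.195 with Brap F/F replicate 2). Of the lower animal numbers only 1 belongs to a control, and of the higher ones only 1 to a knockout, so within a series 1 group has no spread of its own, and the series enters as a covariate only (Ccn1, log2 fold change 0.75, limma, adjusted p = 0.114). Depth limits Ankrd1 and Fjx1, since even 0 reads leave room for 3.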

Other observations

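The relatives and partners of the targets did not pass the threshold (0 of 20 tested by limma and edgeR, with 5 higher and 0 lower at an unadjusted p-value of 0.05, and 1 higher by DESeq2, Gadd45a). Their median log2 fold change was 0.13. At the unadjusted level, 9.23% of all tested genes were higher (limma). For Gas6, the ligand of Axl, the log2 fold change came to 0.32 (limma, adjusted p = 0.463), and the related receptor genes Mertk and Tyro3 had -0.12 and -0.71 (adjusted p = 0.475 and 0.540). Ccn4, of the same family as Ccn1, had 33.8 ± 8.40 (SD, n = 4) normalized counts in Brap LKO livers against 19.9 ± 7.35 (SD, n = 4) in controls (log2 fold change 0.78, adjusted p = 0.260). Of the relatives of Gadd45b, Gadd45a was at 190, 167, 73.9 and 138 in Brap LKO and at 54.7, 53.9, 94.6 and 84.4 in Brap F/F (log2 fold change 0.94, adjusted p = 0.199). Gadd45g differed between the control livers, at 3623 and 3023 in Brap F/F replicates 2 and 3 and at 490 and 568 in replicates 1 and 4.

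Immediate early genes, which respond within minutes to growth factors, stress and handling of tissue, overlap in their inducers with Ccn1, Ccn2 and Gadd45b. None of 13 tested passed the threshold (0 by limma, edgeR and DESeq2), and their median log2 fold change was 0.36. At an unadjusted p-value of 0.05 (limma), 4 were higher and 0 lower, where 9.23% of all tested genes were higher. Klf6 was the 1 whose groups did not overlap (284 ± 33.5 against 215 ± 24.4, SD, n = 4, log2 fold change 0.40, limma, adjusted p = 0.162). Over all tested genes, the Brap LKO livers lay wholly above the Brap F/F livers in 5.48%. Egr1 was at 311, 360, 427 and 204 in Brap LKO and at 91.2, 114, 109 and 412 in Brap F/F, so that Brap F/F replicate 4 stood with the knockout livers, as it did for Ajuba.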
